A study of Homo sapiens with 28 samples.

Results

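DPAGT1, ALG13, ALG14 and MFSD2A are 4 of the 25369 genes counted in this series, taken by name for their link to the antibiotic tunicamycin. DPAGT1 encodes the enzyme that tunicamycin binds and blocks, ALG13 and ALG14 encode the pair of proteins that carry out the next step of the same pathway, and MFSD2A encodes a transporter through which tunicamycin enters cells. The 28 RNA libraries came from LNCaP, an androgen-sensitive prostate cancer cell line, and form 7 groups of 4. All cells had been reverse transfected with an siRNA 2 days before treatment, and the treatments lasted 18 h. DMSO siCtrl received the solvent with a non-targeting siRNA, and TM siCtrl received tunicamycin (2.5 µg/mL) with the same siRNA. TM PERKi siCtrl received in addition the PERK kinase inhibitor GSK2606414 (100 nM). TM siPERK-1 and TM siPERK-3 carried either of 2 siRNAs against EIF2AK3, the gene of PERK, and TM siATF4-2 and TM siATF4-3 either of 2 siRNAs against ATF4, all with tunicamycin at the same dose. Each perturbation was measured under tunicamycin, so its effect without the drug was not analysed here. The series' design text describes 4 independent experiments, all in 1 cell line.

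N-glycosylation begins on the cytosolic face of the endoplasmic reticulum (ER). DPAGT1 transfers GlcNAc-1-phosphate from UDP-GlcNAc to the lipid carrier dolichyl phosphate, and ALG13, the catalytic subunit, docked on the membrane protein ALG14, adds the second GlcNAc. Further mannose and glucose residues are then added, and oligosaccharyltransferase moves the finished glycan to nascent proteins. Tunicamycin resembles the substrates of DPAGT1 and so stops the pathway at its first step, which loads the ER with unfolded protein. PERK senses that load, and its kinase activity favours the translation of the transcription factor ATF4. MFSD2A is a plasma membrane transporter best known for carrying lysophosphatidylcholine with omega-3 fatty acids across the blood-brain barrier.

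In hg19, the build of the tables, DPAGT1 lies on chromosome 11 (118967213 to 118972785, minus strand, 9 exons), ALG13 on chromosome X (110924346 to 111003875, plus strand, 30 exon segments), ALG14 on chromosome 1 (95448279 to 95538507, minus strand, 4 exons) and MFSD2A on chromosome 1 (40420784 to 40435640, plus strand, 14 exons). None of the 4 exon models overlapped an exon of another gene in the tables. Reads were summed over all exons of a gene, so isoforms could not be told apart. ALG13 is known to yield a short form with the glycosyltransferase domain and longer forms with further domains.

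The 3 genes that rose most with tunicamycin are shown with their promoters, 250 bases before to 50 bases after the annotated start, from RefSeq (GRCh38.p14, a different build from the tables). All 4 genes matched the promoter table, ALG13 with 2 starts. Capitals mark CCAAT and CCACG on either strand, the parts of the ER stress response element that ATF6 and XBP1 are known to use.
DPAGT1, chr11:119101804-119102103, minus strand: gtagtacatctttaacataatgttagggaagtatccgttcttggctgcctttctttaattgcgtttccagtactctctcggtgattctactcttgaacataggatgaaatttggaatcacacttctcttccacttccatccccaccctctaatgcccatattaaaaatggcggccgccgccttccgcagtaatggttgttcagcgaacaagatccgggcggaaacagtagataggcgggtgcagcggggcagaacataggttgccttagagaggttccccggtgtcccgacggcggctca
ALG14, chr1:95072902-95073201, minus strand: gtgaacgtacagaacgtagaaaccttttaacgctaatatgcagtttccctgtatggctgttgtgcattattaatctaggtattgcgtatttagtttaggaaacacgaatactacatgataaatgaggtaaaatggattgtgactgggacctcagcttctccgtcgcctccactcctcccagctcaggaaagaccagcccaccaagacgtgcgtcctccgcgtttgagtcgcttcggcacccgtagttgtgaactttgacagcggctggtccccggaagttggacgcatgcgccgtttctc
MFSD2A, chr1:39954895-39955194, plus strand: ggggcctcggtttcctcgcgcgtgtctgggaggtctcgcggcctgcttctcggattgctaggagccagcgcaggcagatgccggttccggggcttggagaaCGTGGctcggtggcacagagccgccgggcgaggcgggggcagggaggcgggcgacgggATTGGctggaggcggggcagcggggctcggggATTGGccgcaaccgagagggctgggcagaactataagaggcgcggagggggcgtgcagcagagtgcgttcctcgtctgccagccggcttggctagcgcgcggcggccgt

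The MFSD2A window held 2 CCAAT matches and 1 CCACG match, all on the strand opposite to the gene, and those of DPAGT1 and ALG14 held neither. ALG13, whose windows are not printed here, had such matches as well. Its window that starts at 111680920 held 1 CCAAT and 1 CCACG match, and that at 111681407 held 1 CCACG match and no CCAAT. Of 27305 promoters of this length, 35.7% held CCAAT and 37.9% held CCACG. Longer elements were searched on both strands. The first was the complete ER stress response element (CCAAT, 9 bases of any kind, then CCACG). Its second form was ATTGG, which is CCAAT on the other strand, 1 base of any kind, then CCACG. The others were the XBP1 element TGACGTGG (which always holds CCACG on its other strand), the ATF4 composite element TGATGNAAN and the cAMP response element TGACGTCA. None of these 5 matched any of the 5 windows of the 4 genes, and 0.0806%, 0.0549%, 0.795%, 3.67% and 1.98% of all promoters held them. Both forms of the ER stress response element and the XBP1 element contain CCACG. They thus could not match the DPAGT1 and ALG14 windows, which lack it, and their absence there adds nothing. These windows cover 300 bases each, and no match says only that the letters are not there.

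Library totals ranged from 10794637 to 17253801 counts, and 14314 genes, among them all 4 described here, had enough counts to be tested. Levels are given in CPM, a gene's counts relative to the library total after TMM scaling, as mean ± SD with n = 4 libraries per group. Changes are log2 values ± SE from edgeR's quasi-likelihood test on all genes, with Benjamini-Hochberg adjustment over all of them in each comparison, and a change was called at an adjusted p under 0.05. The targeted genes followed the labels: EIF2AK3 stood at 89.2 ± 6.51 CPM in TM siCtrl against 24.6 ± 4.0 and 21.5 ± 2.14 CPM with the PERK siRNAs, and ATF4 at 1511 ± 37.4 CPM against 237 ± 82.4 and 114 ± 19.0 CPM with the ATF4 siRNAs. All 10 prostate luminal markers listed for LNCaP were detected well enough to be tested, with a summed level of 3400 to 7898 CPM per library. That sum was 6831 to 7898 CPM with solvent and 4205 to 4470 CPM with tunicamycin alone. It was 3400 to 3704 CPM with the inhibitor, 4036 to 4435 and 4009 to 4504 CPM with siPERK-1 and siPERK-3, and 4780 to 5091 and 4988 to 5229 CPM with siATF4-2 and siATF4-3. The inhibitor and ATF4 siRNA libraries did not overlap those of TM siCtrl in this sum, and its part in the results was not tested. Summed leukocyte markers reached at most 1.67 CPM and endothelial markers, mostly VWF, 10.0 to 19.2 CPM.

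Levels of the 4 genes differed widely in solvent-treated cells. Per kilobase of exon, DPAGT1 stood at 22.2 ± 1.25 CPM per kb in DMSO siCtrl and ALG14 at 15.1 ± 0.853. ALG13 stood at 6.13 ± 0.262 and MFSD2A at 1.94 ± 0.467. This scale sets genes side by side, but rests on the summed exon length, 7005 bases for ALG13 and 1057 for ALG14. Of the tested genes, 77.7% were below the level of DPAGT1 and 26.7% below that of MFSD2A. MFSD2A was thus the scarcest of the 4, with 66 to 95 counts in a DMSO siCtrl library and at most 191 counts anywhere, so its values carry the widest relative error. In TM siCtrl, DPAGT1 (37.1 ± 2.87 CPM per kb) and ALG14 (35.2 ± 2.98) reached like levels per kilobase, with ALG13 at 6.74 ± 0.215 and MFSD2A at 3.25 ± 0.722.

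**Figure D1:**
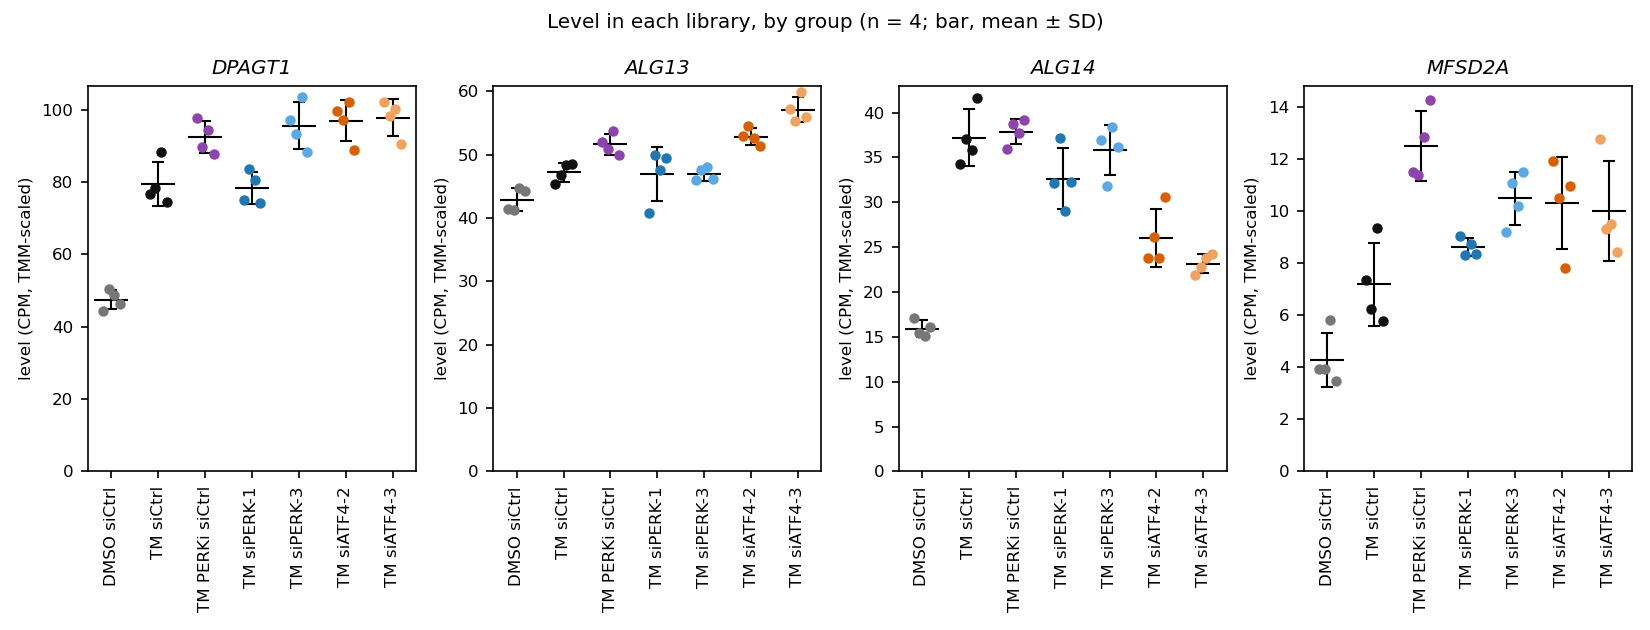
Level of each gene (vertical axis, TMM-scaled CPM, starting at 0) in each of the 28 libraries by group, with points for libraries and bars for the mean ± SD (n = 4). DPAGT1 and ALG14 were lowest in DMSO siCtrl without overlap with any other group, ALG14 was intermediate with the ATF4 siRNAs, and ALG13 stayed between 40.8 and 59.9 CPM in all libraries.

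Tunicamycin alone raised all 4 genes, ALG14 the most and ALG13 the least. DPAGT1 stood at 44.4, 50.5, 48.8 and 46.2 CPM in the DMSO siCtrl libraries and at 76.6, 78.2, 88.3 and 74.4 CPM in those of TM siCtrl. The groups did not overlap, and the enzyme that the drug blocks was thus 1.67-fold higher in transcript (log2 change 0.74 ± 0.06, adjusted p = 2.44e-14). ALG14, the membrane anchor of the second step, stood at 17.1, 15.4, 15.1 and 16.1 CPM with solvent and at 34.3, 37.0, 35.9 and 41.6 CPM with tunicamycin. It was 2.33-fold higher without overlap (1.22 ± 0.08, adjusted p = 2.75e-17), and its change was above that of 94.2% of tested genes.

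MFSD2A, the transporter, stood at 3.95, 3.94, 5.82 and 3.49 CPM with solvent and at 7.38, 6.24, 9.37 and 5.78 CPM with tunicamycin. The highest solvent library, replicate 3, lay just above the lowest tunicamycin library, replicate 4. The change of 0.74 ± 0.16 (1.67-fold, adjusted p = 7.27e-05) had the size of that of DPAGT1, with a wider error. ALG13, the catalytic partner of ALG14, stood at 41.4, 41.2, 44.7 and 44.2 CPM with solvent and at 45.3, 46.8, 48.4 and 48.5 CPM with tunicamycin. Its libraries did not overlap, but the change was small (0.14 ± 0.05, adjusted p = 0.0226). That call rested on single libraries. It was lost when DMSO siCtrl replicate 1 (0.12, adjusted p = 0.0657), DMSO siCtrl replicate 2 (0.12, adjusted p = 0.0676) or TM siCtrl replicate 3 (0.13, adjusted p = 0.0517) was left out, and the settings tried gave 0.0128 to 0.0676. All 4 genes were called and 3 of 4 did not overlap, in a comparison in which 69% of all tested genes were called, 34.3% of tested genes as higher, and 61% did not overlap. Their median log2 change was 0.74, against 0.01 over all tested genes.

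**Figure D2:**
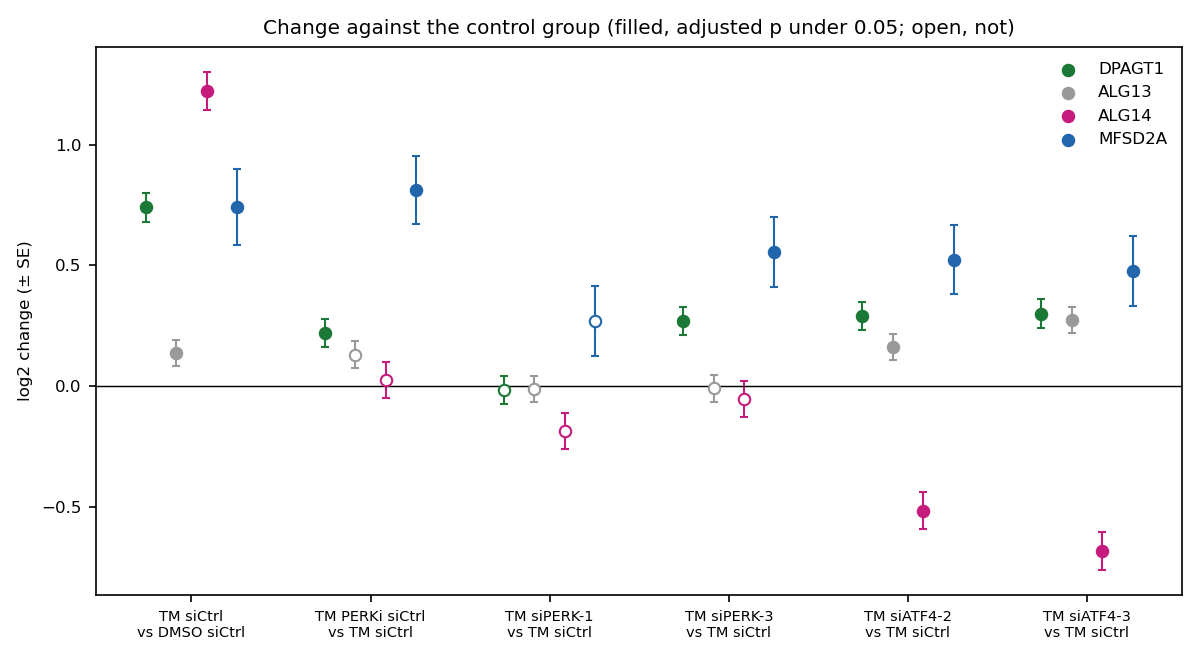
Log2 change ± SE of each gene (vertical axis) in the 6 comparisons against a control group (horizontal axis), with filled points where the adjusted p was under 0.05 and open points where it was not. ALG14 rose most with tunicamycin (1.22) and is the only one of the 4 genes called lower in any of these comparisons, with both ATF4 siRNAs (−0.51 and −0.68).

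The siRNAs against ATF4 lowered ALG14 and raised DPAGT1, ALG13 and MFSD2A under tunicamycin, with both oligos. ALG14 stood at 23.7, 26.1, 23.8 and 30.6 CPM with siATF4-2 and at 21.9, 22.8, 23.8 and 24.3 CPM with siATF4-3. Both sets lay below every TM siCtrl library. The changes were −0.51 ± 0.08 (adjusted p = 3.40e-07) and −0.68 ± 0.08 (adjusted p = 7.93e-10), or to 0.70 and 0.62 of the TM siCtrl level. ALG14 remained above DMSO siCtrl in every library, by 0.71 ± 0.08 (adjusted p = 1.16e-09) and 0.54 ± 0.08 (adjusted p = 6.96e-07), beside 1.22 ± 0.08 in TM siCtrl. The 2 values against DMSO and that of TM siCtrl share the same solvent libraries.

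Of the markers of other cell types, COL1A1 was, like ALG14, higher with tunicamycin alone and lower with both ATF4 siRNAs under tunicamycin. Against DMSO siCtrl, where ALG14 was called higher with both ATF4 siRNAs, no tested fibroblast marker was called with either. Summed fibroblast markers stood at 18.5 to 22.7 CPM with solvent, 33.2 to 39.7 with tunicamycin alone, 15.5 to 24.1 with siATF4-2 and 14.4 to 21.5 with siATF4-3, and 2 of the 7 markers had enough counts to be tested. Nearly all of that sum was COL1A1, a collagen chain gene, at 17 to 21 CPM with solvent, 32.2 to 39.3 CPM with tunicamycin alone and 13.9 to 20.6 CPM with siATF4-3. The other tested marker, COL3A1, a further collagen gene, went the other way at very low counts, with 0.724 ± 0.0890 CPM with solvent, 0.299 ± 0.164 with tunicamycin alone and 0.653 ± 0.218 with siATF4-2. So 1 of the 2 was called higher and 1 lower both with tunicamycin and with siATF4-2, and 1 lower with siATF4-3. COL1A2, the gene of the chain that fibroblasts make with it, was at 0 counts in all 28 libraries. The part of other cells, or of fewer cells as against less RNA per cell, in any level given here was not tested and cannot be told apart in bulk RNA.

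DPAGT1 stood at 99.5, 97.2, 102.2 and 88.9 CPM with siATF4-2 and at 102.2, 98.3, 100.1 and 90.4 CPM with siATF4-3. Every one of these libraries was above every TM siCtrl library, the highest of which reached 88.3 CPM. The rises were 0.29 ± 0.06 (adjusted p = 4.61e-05) and 0.30 ± 0.06 (adjusted p = 2.21e-05), or 1.22-fold and 1.23-fold, and left DPAGT1 2.04-fold and 2.06-fold above its solvent level (1.03 ± 0.06 and 1.04 ± 0.06 against DMSO siCtrl).

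ALG13 stood at 53.0, 54.5, 52.7 and 51.3 CPM with siATF4-2 and at 57.3, 55.4, 59.9 and 56.0 CPM with siATF4-3. Again no library overlapped those of TM siCtrl, and the rises were 0.16 ± 0.05 (adjusted p = 0.0102) and 0.27 ± 0.05 (adjusted p = 3.29e-05). MFSD2A stood at 12.0, 10.5, 7.83 and 11 CPM with siATF4-2 and at 12.8, 9.31, 9.51 and 8.42 CPM with siATF4-3. Its libraries overlapped those of TM siCtrl, with rises of 0.52 ± 0.14 (adjusted p = 0.00203) and 0.48 ± 0.15 (adjusted p = 0.00451).

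All 4 genes were called with either oligo, 3 higher and 1 lower, where 55.6% of all tested genes were called with siATF4-2 (28.4% higher and 27.2% lower) and 61.9% with siATF4-3 (31.2% higher and 30.7% lower). Those without overlap were 3 of 4 with each, against 46.8% and 55.1% of tested genes. Between the oligos themselves, 0 of the 4 genes passed the edgeR test, where 14.7% of tested genes were called. In DESeq2 or limma-voom 0 passed as well. An unadjusted p under 0.05 in edgeR was reached by 2 (ALG13 and ALG14, chosen here after their values were seen). The share of all tested genes at that unadjusted threshold, or called in DESeq2 or limma-voom, was not computed. The differences, siATF4-2 less siATF4-3, were −0.01 ± 0.06 for DPAGT1, −0.11 ± 0.05 for ALG13, 0.17 ± 0.08 for ALG14 and 0.05 ± 0.14 for MFSD2A. Leaving out siATF4-2 replicate 4, the library of its group with the most ALG14, gave 0.08 for ALG14 (adjusted p = 0.586, where the settings tried gave 0.108 to 0.586). The approximate 95% interval of the MFSD2A difference ran from −0.23 to 0.32, so a difference between the oligos within that range was not excluded.

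The PERK inhibitor raised MFSD2A and, by less, DPAGT1, and no change of ALG14 was called. MFSD2A stood at 11.5, 11.4, 12.9 and 14.3 CPM with the inhibitor. Each of these libraries was above each TM siCtrl library. The change was 0.81 ± 0.14 (1.76-fold, adjusted p = 1.39e-05), larger than that of 98.6% of tested genes, and MFSD2A stood 2.94-fold above DMSO siCtrl in this group (1.55 ± 0.15).

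DPAGT1 stood at 97.6, 89.7, 94.3 and 87.9 CPM with the inhibitor, which overlapped TM siCtrl by 1 library on each side (0.22 ± 0.06, adjusted p = 0.00269). ALG13 stood at 52.0, 50.9, 53.8 and 49.98 CPM, above every TM siCtrl library. Its difference of 0.13 ± 0.05 was not called (adjusted p = 0.0596), but was with DESeq2-type size factors (0.14, adjusted p = 0.0371), in DESeq2 (0.14, adjusted p = 0.0397) and with the replicate number as a block (0.13, adjusted p = 0.0390) (0.0371 to 0.174 across the settings tried). ALG14 stood at 35.9, 38.8, 37.8 and 39.1 CPM, within the range of TM siCtrl. The difference was 0.03 ± 0.07 (adjusted p = 0.809), with an approximate 95% interval of −0.12 to 0.17. Called with the inhibitor were 2 of the 4 genes, against 35.7% of tested genes, and 2 of 4 did not overlap, against 32.5%.

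The 2 PERK siRNAs, which left similar levels of EIF2AK3, differed in their effect on DPAGT1. DPAGT1 stood at 75.1, 83.5, 80.7 and 74.2 CPM with siPERK-1 and at 97.1, 93.3, 103.6 and 88.4 CPM with siPERK-3. The former overlapped TM siCtrl, with 1 library just below its range (−0.02 ± 0.06, adjusted p = 0.870) and the latter above it, its lowest library only just (0.27 ± 0.06, adjusted p = 4.65e-04). The direct difference, siPERK-1 less siPERK-3, was −0.29 ± 0.06 (adjusted p = 0.00144) without overlap. In that comparison 4.73% of tested genes were called and DPAGT1 was the 1 of the 4 genes that passed. So the rise of DPAGT1 under PERK knockdown was seen with 1 oligo only.

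MFSD2A stood at 9.04, 8.33, 8.74 and 8.34 CPM with siPERK-1 and at 9.22, 11.1, 10.2 and 11.5 CPM with siPERK-3. The change was called with siPERK-3 (0.55 ± 0.14, adjusted p = 0.00348) and not with siPERK-1 (0.27 ± 0.14, adjusted p = 0.172). TM siCtrl replicate 3 held the most MFSD2A of its group, and leaving it out gave a call with siPERK-1 as well (0.41, adjusted p = 0.0398, where the settings tried reached up to 0.419). The direct difference between the oligos was −0.28 ± 0.14 (adjusted p = 0.316), although their libraries did not overlap, as was the case for 10.4% of tested genes.

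ALG14 stood at 32.2, 37.2, 29.0 and 32.2 CPM with siPERK-1 and at 36.9, 31.9, 38.4 and 36.2 CPM with siPERK-3. Both sets overlapped TM siCtrl (−0.19 ± 0.07, adjusted p = 0.0585, and −0.05 ± 0.08, adjusted p = 0.652). With siPERK-1 ALG14 was called lower with the replicate number as a block (−0.18, adjusted p = 0.0296), and when TM siCtrl replicate 1 (−0.22, adjusted p = 0.0355) or TM siPERK-1 replicate 2 (−0.26, adjusted p = 0.0134) was left out, with 0.0134 to 0.238 across the settings tried. ALG13 stood at 40.8 to 49.9 CPM and 46.0 to 48.1 CPM, with differences of −0.01 ± 0.05 and −0.01 ± 0.06. Of the 4 genes, 0 were called with siPERK-1 and 2 with siPERK-3 by edgeR, where 26.4% and 26.8% of tested genes were called. DESeq2 and limma-voom also called 0 with siPERK-1. ALG14 with siPERK-1 had an unadjusted p under 0.05 in edgeR. The share of all tested genes at that unadjusted threshold, or called in DESeq2 or limma-voom, was not computed.

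The perturbations were then set against each other. ALG14 was lower with the ATF4 siRNAs than with the PERK siRNAs (−0.48 ± 0.06, adjusted p = 1.12e-09), and the inhibitor left it higher than the ATF4 siRNAs did (0.63 ± 0.07, adjusted p = 8.33e-11). ALG13 went the other way, higher with the ATF4 than with the PERK siRNAs (0.23 ± 0.04, adjusted p = 2.75e-06), and so did DPAGT1 by a smaller step (0.17 ± 0.04, adjusted p = 4.64e-04). For DPAGT1 the PERK side averages oligos that differed, at 78.4 ± 4.44 CPM (siPERK-1) and 95.6 ± 6.40 CPM (siPERK-3). The ATF4 siRNAs stood at 96.9 ± 5.76 and 97.7 ± 5.13 CPM, and their libraries overlapped those of siPERK-3. MFSD2A did not pass between these siRNA pairs (0.09 ± 0.10, adjusted p = 0.456), with 0.02 without siATF4-3 replicate 1 and 0.15 without siATF4-2 replicate 3 as the extremes of leaving out 1 library (adjusted p 0.199 to 0.866). It was higher with the inhibitor than with the PERK siRNAs (0.40 ± 0.12, adjusted p = 0.00445) and than with the ATF4 siRNAs (0.31 ± 0.12, adjusted p = 0.0197). The latter call was lost when TM PERKi siCtrl replicate 3 (0.30, adjusted p = 0.0517) or 4 (0.24, adjusted p = 0.104) was left out, and the settings tried gave 0.0041 to 0.104. ALG13 was higher with the inhibitor than with the PERK siRNAs (0.14 ± 0.05, adjusted p = 0.0134), a call lost when TM PERKi siCtrl replicate 3 was left out (0.12, adjusted p = 0.0678, where the settings tried gave 0.00618 to 0.0678). In these 3 comparisons 63.9%, 65.6% and 51.9% of tested genes were called (ATF4 against PERK siRNAs, inhibitor against ATF4 siRNAs, inhibitor against PERK siRNAs), with 3, 2 and 2 of the 4 genes. For the inhibitor against the PERK siRNAs, 3 genes were called in DESeq2 and limma-voom, with ALG14 gained (0.15 ± 0.07, adjusted p = 0.0560 in edgeR, 0.0405 and 0.0475 in these). With the replicate block 4 were called, with DPAGT1 gained too (0.09, adjusted p = 0.0433). The 51.9% above is the share in edgeR without the block, and the shares of all genes under these alternatives were not computed.

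Against DMSO siCtrl, all 4 genes were called higher in each of the 5 groups that combined tunicamycin with a perturbation. In the order inhibitor, siPERK-1, siPERK-3, siATF4-2 and siATF4-3, the tested genes called were 72.9%, 63.9%, 61.9%, 59.7% and 57.4%, and those called higher 35%, 31.6%, 30.4%, 29.7% and 28.1%. Changes ran from 0.72 to 1.04 for DPAGT1, from 0.13 to 0.41 for ALG13, from 0.54 to 1.25 for ALG14 and from 1.01 to 1.55 for MFSD2A. These comparisons share the solvent libraries. For ALG13 the calls of both PERK siRNAs (0.13 ± 0.05, adjusted p = 0.0391, and 0.13 ± 0.06, adjusted p = 0.0392) were lost without DMSO siCtrl replicate 1 (0.11, adjusted p = 0.101, and 0.11, adjusted p = 0.10) or replicate 2 (0.11, adjusted p = 0.103, and 0.11, adjusted p = 0.102). The siPERK-1 call was also lost without its own replicate 2, 3 or 4 (0.10, 0.12 and 0.10), while its value was 0.19 without its replicate 1, and the siPERK-3 call without its replicate 2 or 3 (0.13 and 0.12). With no filter on low counts both were lost as well (adjusted p = 0.0684 and 0.0806), and with the compared groups alone that of siPERK-1 (adjusted p = 0.0645).

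Ordered by mean level, DPAGT1 ran from siATF4-3 (97.7 ± 5.13 CPM) through siATF4-2, siPERK-3, the inhibitor, TM siCtrl and siPERK-1 to DMSO siCtrl (47.5 ± 2.68), and each group overlapped its neighbour except for the last step to DMSO siCtrl. ALG14 ran from the inhibitor (37.9 ± 1.44 CPM) through TM siCtrl, siPERK-3, siPERK-1, siATF4-2 and siATF4-3 (23.2 ± 1.06) to DMSO siCtrl (15.9 ± 0.901), again with a gap only at the last step. MFSD2A ran from the inhibitor (12.5 ± 1.35 CPM) through siPERK-3, siATF4-2, siATF4-3, siPERK-1 and TM siCtrl (7.19 ± 1.60) to DMSO siCtrl (4.30 ± 1.03), with overlap at every step. ALG13 ran from siATF4-3 (57.2 ± 2.00 CPM) through siATF4-2, the inhibitor, TM siCtrl, siPERK-3 and siPERK-1 to DMSO siCtrl (42.9 ± 1.84). Its neighbours were separate between siATF4-3 and siATF4-2 and between the inhibitor and TM siCtrl, and overlapped elsewhere.

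Because ALG13 and ALG14 act as a pair, their ratio within each library was formed, which does not depend on depth or scaling. Its size rests on the summed exon lengths, while its differences between groups do not. In CPM with solvent, ALG13 (42.9) stood above ALG14 (15.9). Per kilobase, ALG14 over ALG13 was 1.30 ± 0.12 on the log2 scale (2.46-fold) with solvent and 2.38 ± 0.09 in TM siCtrl (5.21-fold). It was 2.28 ± 0.09 with the inhibitor, 2.20 ± 0.17 with siPERK-1 and 2.33 ± 0.12 with siPERK-3, each overlapping TM siCtrl. With the ATF4 siRNAs it was 1.70 ± 0.19 (siATF4-2) and 1.43 ± 0.08 (siATF4-3), below every other tunicamycin library. The siATF4-3 libraries (1.34 to 1.52) overlapped those of DMSO siCtrl (1.16 to 1.45), while the siATF4-2 libraries (1.57 to 1.98) were above them.

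The ratio of DPAGT1 to ALG14 sets the first step against the second. It divides by ALG14, which the first ratio has on top, so opposite movement of the ratios is partly built in. The DPAGT1 to ALG14 ratio was 0.56 ± 0.16 with solvent and 0.07 ± 0.19 with tunicamycin alone, without overlap. It was 0.27 ± 0.12 with the inhibitor, 0.25 ± 0.14 with siPERK-1 and 0.40 ± 0.11 with siPERK-3, each overlapping TM siCtrl. The highest values were those of siATF4-2 (0.88 ± 0.26) and siATF4-3 (1.06 ± 0.14, or 2.08-fold). The ratios were formed after the data had been examined and are given as a description.

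**Figure D3:**
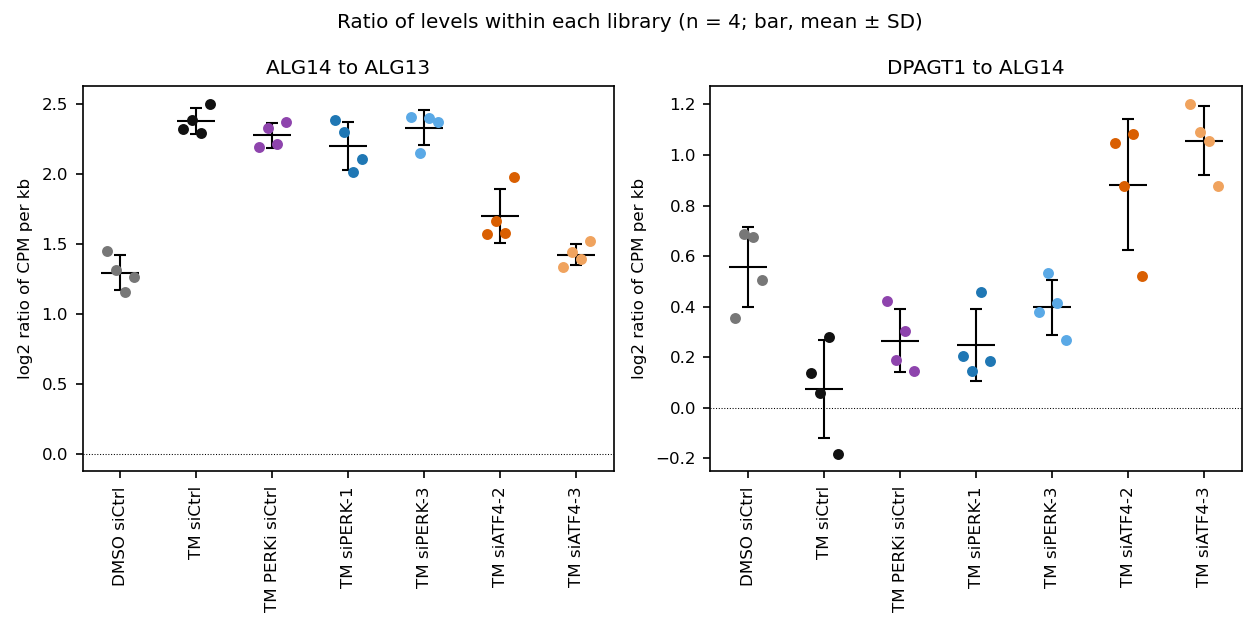
Log2 ratio of levels per kilobase within each library (vertical axis) by group, ALG14 to ALG13 on the left and DPAGT1 to ALG14 on the right, with points for libraries and bars for the mean ± SD (n = 4); the dotted line marks equal levels. The ALG14 to ALG13 ratio stood at 2.38 in TM siCtrl and at 1.70 and 1.43 with the ATF4 siRNAs.

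The rest of the pathway gives the setting of these changes. Of 11 other genes of lipid-linked oligosaccharide assembly, 5 rose and 3 fell with tunicamycin (median −0.01), where 69% of all tested genes were called and 34.3% were called higher. The called share of this list is thus near that of all genes. Those raised most were the mannosyltransferase genes ALG2 (1.34 ± 0.06), ALG11 (1.27 ± 0.09) and ALG12 (0.97 ± 0.06), and those lowered were the glucosyltransferase genes ALG10 (−0.67 ± 0.13), ALG10B (−0.42 ± 0.06) and ALG6 (−0.26 ± 0.06). ALG2 and ALG11 add mannose on the cytosolic face, later than the ALG13-ALG14 step, while ALG6 and ALG10 add glucose on the luminal side.

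Among 10 genes that supply dolichol and its sugar phosphates, 5 rose and 1 fell (median 0.16), against the same 69% called and 34.3% called higher of all tested genes. ALG5, of dolichol-phosphate glucose synthesis (1.28 ± 0.07), NUS1, a subunit of the enzyme that makes the dolichol chain (1.12 ± 0.05), and its partner DHDDS (0.64 ± 0.06) rose most, and SRD5A3, of the final step to dolichol, fell (−0.25 ± 0.06). Of 7 genes that supply UDP-GlcNAc, the sugar donor of DPAGT1, 2 rose, GFPT1 (2.63 ± 0.09) and PGM3 (1.56 ± 0.05), and 4 fell, led by GFPT2 (−1.0 ± 0.23), UAP1 (−0.45 ± 0.05) and UAP1L1 (−0.44 ± 0.13). All 12 oligosaccharyltransferase subunit genes rose (median 1.14, against 0.01 and 34.3% called higher over all tested genes), led by MAGT1 (1.86 ± 0.05), OSTC (1.70 ± 0.05) and RPN1 (1.46 ± 0.04).

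The ATF4 siRNAs lowered all 12 of these oligosaccharyltransferase genes with either oligo (median −0.20 with siATF4-2 and −0.31 with siATF4-3). Of all tested genes, 27.2% were called lower and 28.4% higher with siATF4-2, and 30.7% and 31.2% with siATF4-3. In assembly they lowered 3 and raised 2 of 11 with siATF4-2 and lowered 6 and raised 2 with siATF4-3, and ALG11 fell with both (−0.68 ± 0.09 and −0.94 ± 0.09), although 1573 of its 2565 exon bases are shared with UTP14C on the same strand. In dolichol supply they lowered 4 and raised 2 of 10, and lowered 6 and raised 2. In UDP-GlcNAc supply 2 were lowered and 2 raised of 7 with each oligo, with GFPT1 at −0.71 ± 0.08 and −1.06 ± 0.08. DPAGT1 rose with both oligos (0.29 and 0.30), as did ALG3 (0.16 ± 0.07 and 0.22 ± 0.07), DPM2 (0.41 ± 0.08 and 0.52 ± 0.08) and MPDU1 (0.23 ± 0.05 and 0.36 ± 0.05).

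With the inhibitor, 2 rose and 2 fell of 11 in assembly, 5 rose and 2 fell of 10 in dolichol supply, 3 rose and 1 fell of 7 in UDP-GlcNAc supply and 3 rose and 1 fell of 12 in oligosaccharyltransferase, where 35.7% of all tested genes were called. The largest of the latter was MAGT1 (0.63 ± 0.05). With the PERK siRNAs (siPERK-1, then siPERK-3), 4 rose and 1 fell and 4 rose and 2 fell in assembly, 4 rose and 2 fell and 2 rose and 2 fell in dolichol supply, 1 rose and 2 fell and then 2 fell in UDP-GlcNAc supply, and 2 rose and 1 fell and then 4 rose in oligosaccharyltransferase, where 26.4% and 26.8% of all tested genes were called. Exon models of ALG1, ALG3, ALG11, DOLK, MPDU1, PGM3, RPN2, DDOST, OST4 and TMEM258 overlap another gene. For ALG11, DDOST and TMEM258 that gene lies on the same strand, so their counts are uncertain even where reads are assigned by strand, and for the others where they are not.

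**Figure D4:**
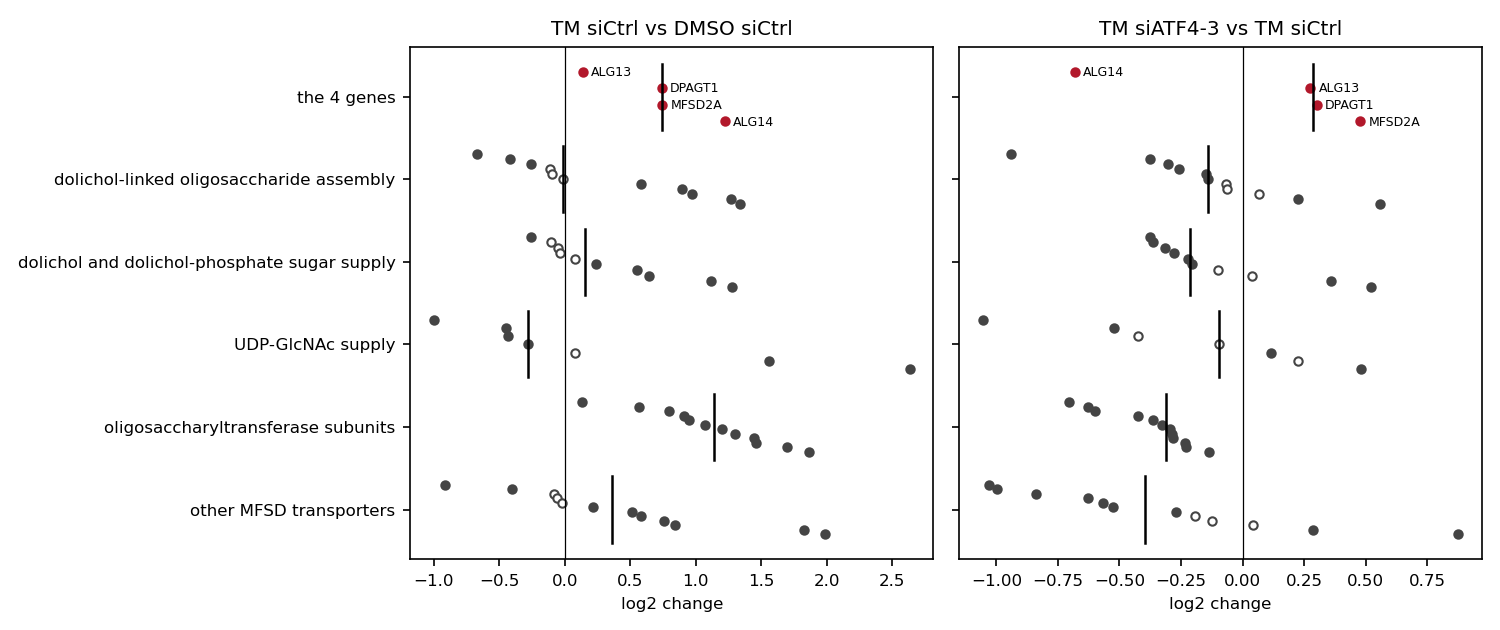
Log2 change (horizontal axis) of the 4 genes and of each tested gene of 5 lists (rows) with tunicamycin (left) and with siATF4-3 under tunicamycin (right); filled points had an adjusted p under 0.05, open points did not, and vertical ticks mark the median of a row. The 12 oligosaccharyltransferase points lie above 0 on the left and below 0 on the right, as ALG14 does, while DPAGT1, ALG13 and MFSD2A lie above 0 on both sides.

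Across the 28 libraries, the levels of DPAGT1 and MFSD2A ran most alike among the 4 genes (Pearson r = 0.865 on log2 CPM), and those of ALG13 and ALG14 least (r = 0.140). Among the 12029 genes whose log2 CPM averaged 1 or more, those most like DPAGT1 were FAF2 (r = 0.961), MTDH (0.961) and LRRC59 (0.954). FAF2 takes part in ER-associated degradation. Most like ALG14 were MPZL3 (0.974), ENTPD3 (0.973) and ERLEC1 (0.972), an ER lectin of the same degradation pathway. Most like MFSD2A were NANS (0.918), which makes sialic acid phosphate, FTSJ1 (0.908) and the ER ubiquitin-conjugating enzyme gene UBE2J1 (0.904), and most like ALG13 were FAM208B (0.923), SMG1 (0.917) and ZFR (0.913). The libraries share their groups and treatments, so these values describe the shape over groups and carry no test.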

How the data were processed

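The authors deposited raw counts of reads per gene in 6 tables of 25370 lines. Per the submitters' processing notes, the tools were DESeq2 1.10.1, featureCounts 1.5.0-p1 and TopHat2 2.1.0, with build hg19. Their settings, the annotation and the use of strand in counting (the kit keeps strand) are not given in sources used here. The TM siCtrl columns recurred in all tables, with 0 values that differed, and entered once. A single line with no gene name (0 counts) was left out. Samples were grouped by title. Counts were scaled by TMM and tested in edgeR 4.0.16 (R 4.3.3; filterByExpr by group, minimum count 10 and total 15; 1 mean per group; two-sided quasi-likelihood test with robust dispersion) with all 28 libraries in 1 fit and 16 comparisons. The SE is the absolute log2 change over the square root of F, and approximate 95% intervals are 1.96 SE on each side. The test was also run on simulated data for tunicamycin against solvent, with few genes changed. That setting differs from these data, and no result here rests on it. Alternatives were DESeq2 1.42.0, limma-voom (limma 3.58.1), RLE and upper-quartile factors, no filter, fits of the compared groups only, a replicate block and leaving out each library. The text names the 4 genes always, up to 3 called genes per list and direction with tunicamycin, and the 3 genes most correlated with each; other list members were chosen after their values were seen. The 4 genes and the lists were chosen with earlier results of these data known. The values of 1 gene of the lists are not reported here.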

Additional observations from a re-analysis of the deposited data

How the results depend on the processing

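Of 360 alternative values for the 24 changes of the 4 genes against a control group, 337 kept their direction and side of the threshold. Of 664 for the 40 direct and solvent comparisons, 629 did. All changes of sign fell on differences that were not called. Upper-quartile factors turned ALG13 with siPERK-1 (0.0039) and between the PERK siRNAs (0.015), as did no filter (0.0018) and the compared groups alone (0.00011) for the latter. Leaving out 1 library gave ranges of −0.042 to 0.054 and −0.028 to 0.0028 for ALG13 with siPERK-1 and siPERK-3, −0.049 to 0.037 for DPAGT1 with siPERK-1, and −0.011 to 0.083 and −0.092 to 0.00070 for ALG14 with the inhibitor and siPERK-3. Between oligos it gave −0.034 to 0.062 for ALG13 (PERK), and −0.046 to 0.029 for DPAGT1 and −0.029 to 0.18 for MFSD2A (ATF4). It gave 0.12 to 0.16 for ALG13 with tunicamycin, −0.26 to −0.13 for ALG14 and 0.18 to 0.41 for MFSD2A with siPERK-1, with the calls named above. ALG13 with the inhibitor was called with DESeq2-type factors (0.14), in DESeq2 (0.14) and with the replicate block (0.13). ALG14 with the inhibitor against the PERK siRNAs (0.15 ± 0.07, adjusted p = 0.0560) was called in 8 of 19 alternatives (adjusted p 0.0169 to 0.133).

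Same-numbered libraries of different groups deviated together (r over 0.1 in 30 of 84 pairs, −0.01 to 0.302), and 28 of 28 libraries correlated best with their own number, a hint from the data that the labels do not state. With the replicate block ALG14 with siPERK-1 was called (−0.18), and between the PERK siRNAs the counts of all genes rose from 321 higher and 356 lower to 550 and 645. Leaving out 1 library there gave 180 to 286 and 211 to 341. Upper-quartile factors gave 406 higher and 269 lower. DPAGT1 with the inhibitor against the PERK siRNAs was called with the block only (0.09, adjusted p = 0.0433).

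Depth limits MFSD2A most, with 66 to 191 counts a library. P-values rest on the spread among the 4 libraries within groups, estimated over all 7 groups together and in 1 cell line. A transcript level gives neither enzyme activity nor drug uptake.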

Other observations

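Other members of the transporter family of MFSD2A also changed. Of 13 other MFSD genes, 12 had enough counts to be tested, and 7 rose and 2 fell with tunicamycin (median 0.36, against 0.01 over all tested genes, of which 69% were called and 34.3% higher). MFSD9 (1.99 ± 0.09), MFSD6 (1.82 ± 0.08) and MFSD6L (0.85 ± 0.26) rose most, and MFSD3 (−0.92 ± 0.08) and MFSD7 (−0.40 ± 0.17) fell. With the ATF4 siRNAs 1 rose and 4 fell (siATF4-2) and 2 rose and 7 fell (siATF4-3), where 55.6% and 61.9% of all tested genes were called, with MFSD9 at −0.89 ± 0.08 and −1.03 ± 0.08 and MFSD6 at −0.73 ± 0.07 and −1.0 ± 0.08. MFSD2A stood at 0.52 ± 0.14 and 0.48 ± 0.15 in the same comparisons, and MFSD3 at 0.69 ± 0.08 and 0.88 ± 0.08. With the inhibitor 2 rose and 5 fell, where 35.7% of all tested genes were called. The exon models of MFSD7 and MFSD11 overlap another gene. The MFSD genes were named beyond tunicamycin after their values were seen.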
